A study of Mus musculus with 10 samples.

Results

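PIWI-interacting RNAs (piRNAs) are small germline RNAs that guide PIWI proteins to transposon and other transcripts, and the 10 genes described here encode core proteins of that pathway. The members were fixed by name as the PIWI proteins Piwil1, Piwil2 and Piwil4, the precursor helicase Mov10l1, the mitochondrial proteins Pld6 and Asz1, the PIWI cofactor Gtsf1, the Tudor proteins Tdrd1 and Tdrd9, and Mael. Probes were assigned to a member through their accession. Of the 10 members, 9 had a named probe and all 9 were among the 16835 genes tested. No probe was named for Piwil4, so that gene was not analysed here.

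The RNA came from single testes of 10 male C57BL/6N mice aged 6 weeks, on 1 array each. The 5 R animals were sons of dams held at 50% of the mean control intake from 6.5 days post coitum, and unrelated control dams reared them. Mothers of the 5 C animals ate without limit and reared their own litters, so prenatal diet and fostering differ together. After weaning every animal ate regular chow freely, and the labels give neither the litters nor the RNA kit behind each sample. Independence of the 10 animals is assumed in every p-value.

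In the adult mouse testis, long piRNA precursors are unwound by the helicase MOV10L1 and cut at the mitochondrial surface, where PLD6 and the scaffold ASZ1 sit. The pieces are loaded into PIWI proteins, trimmed, methylated and used to find target RNA. Piwil2 is used from fetal germ cells to round spermatids, Piwil1 from pachytene spermatocytes onward, and Piwil4 mainly in the fetal testis. Most of this machinery lies in cytoplasmic granules called nuage, which Tudor proteins hold together by binding methylated arginines of PIWI proteins.

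The comparison asks which of these transcripts differed between R and C testes. By limma with Benjamini-Hochberg adjustment over all probes, 2 of the 9 tested members, Asz1 and Mov10l1, were called lower in R (adjusted p under 0.05) and 0 were called higher. Among all genes 20.6% were called lower, 15% higher and 35.6% in either direction. The members' count on the lower side lay close to its background. Their counts on the higher side and in either direction lay under theirs, and with 9 members these gaps were not tested. At an unadjusted p under 0.05 there were 3 of the 9 members, Asz1 and Mov10l1 on the lower and Mael on the higher side, and 8078 of the 16835 genes. The median difference of the 9 members was -0.034 on the log2 scale, and that of all genes was -0.026. Values are log2 signals, in which 0 is the 75th percentile of an array's processed intensity, and differences are R minus C. In whole testis, fewer cells of a type and less RNA per cell cannot be told apart.

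Between 54.6% and 65.9% of an array's probes were well above background, no spot was saturated, and the number of arrays limits the precision. C replicate 2 stood apart on principal component 1, at -123. The other C arrays were at -29.5 (C replicate 5) to -13.9, and the R arrays at 33.6 to 49.2 (R replicate 1). In the authors' deposited table R replicate 1 counts as a control and C replicate 5 as a test array. The labels say the opposite and are followed here. Its 2266 probes hold 0 probes of the members. With the table's grouping limma called 0 of the 9 members (0 at an unadjusted p under 0.05) and 0 genes in all (1374 at an unadjusted p under 0.05). Without these 2 arrays Asz1 alone was called among the members, beside 2702 of all 16835 genes. The arrays lie on 2 slides, with 2 C and 4 R arrays on slide 1 and 3 C and 1 R arrays on slide 2. Markers bore out the tissue label: all 15 elongating spermatid and all 14 late spermatocyte markers were tested, and of 7 epididymal markers only Rnase10 was above background on enough arrays.

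The start regions of both called genes and of Piwil1 are shown because they are the called members and the member whose single window holds the most matches to the binding letters of MYB factors. MYBL1, also called A-MYB, is a transcription factor of pachytene spermatocytes that is known to drive many genes of this pathway. Each run is 300 bases, from 250 bases before to 50 bases after the start in RefSeq on GRCm38.p6, read 5′ to 3′ on the gene's own strand. Asz1 lies at chr6:18109012-18109311 on the minus strand, Mov10l1 at chr15:88982744-88983043 on the plus strand and Piwil1 at chr5:128735996-128736295 on the plus strand. Capitals mark the MYB core AACNG on either strand.
Asz1: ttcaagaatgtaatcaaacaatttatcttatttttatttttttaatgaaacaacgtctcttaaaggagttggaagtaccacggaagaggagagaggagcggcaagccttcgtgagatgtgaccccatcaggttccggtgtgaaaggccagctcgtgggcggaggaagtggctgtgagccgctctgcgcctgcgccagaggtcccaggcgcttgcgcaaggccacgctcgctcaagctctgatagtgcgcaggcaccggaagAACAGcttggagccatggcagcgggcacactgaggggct
Mov10l1: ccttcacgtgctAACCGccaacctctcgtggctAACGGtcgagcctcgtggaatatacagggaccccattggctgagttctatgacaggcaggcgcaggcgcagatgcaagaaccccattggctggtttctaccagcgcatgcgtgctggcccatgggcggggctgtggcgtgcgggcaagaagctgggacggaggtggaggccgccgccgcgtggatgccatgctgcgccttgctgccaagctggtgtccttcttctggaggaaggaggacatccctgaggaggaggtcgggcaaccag
Piwil1: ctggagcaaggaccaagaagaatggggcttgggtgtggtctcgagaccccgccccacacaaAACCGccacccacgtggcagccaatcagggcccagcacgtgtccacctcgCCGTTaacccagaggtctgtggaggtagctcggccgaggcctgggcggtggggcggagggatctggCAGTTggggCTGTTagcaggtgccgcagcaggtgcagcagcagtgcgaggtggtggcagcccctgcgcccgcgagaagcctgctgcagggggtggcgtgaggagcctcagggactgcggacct

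The table held 13 such windows for 9 of the 10 members. The core AACNG occurred 1 time in the window of Asz1, 2 times in that of Mov10l1 and 4 times in that of Piwil1, against a mean of 1.77 over all 32851 windows. It was present in 12 of the 13 member windows, beside 80.3% of all windows. By gene it was present for 8 of the 9 members with a window, Gtsf1 being the exception. The longer site CAACTG, which contains the core, occurred in 1 of the 13 member windows, that of Piwil1, beside 13.7% of all windows. The CCAAT box CCAAT was found in 5 of the 13 member windows (of Mael, Mov10l1, Piwil1, Pld6 and Tdrd9), beside 37.4% of all windows. The cAMP response core TGACG was found in 1 of the 13, a window of Tdrd1, beside 20.8%. All motifs were searched on both strands. The window of Asz1, the gene with the largest difference among the members, held neither CAACTG nor CCAAT. The same was true of every window of Tdrd1, Gtsf1 and Piwil4.

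Of the PIWI genes, Piwil1 had log2 signals of 1.98, 2.08, 2.34, 2.49 and 2.41 in C replicates 1 to 5. In R replicates 1 to 5 it was at 2.17, 2.03, 2.51, 2.35 and 2.45, so the groups overlapped along their whole range. The difference was 0.044 ± 0.13 (SE, n = 5 per group, 95% interval -0.24 to 0.33, limma adjusted p = 0.794). The interval reaches from 1.18-fold lower to 1.25-fold higher, so equality was not shown. The spread of Piwil1 followed the position of the array: the 4 arrays of row 1 on slide 1, C replicates 1 and 2 and R replicates 1 and 2, were all below the other 6. The brightest probe of Tdrd9 had the same split, and its other probe did not. By brightest probes the split held for 2 of 9 members, Piwil1 included, and for 3.32% of all genes. It was chosen after the values were seen, so this count is not a test. Within those 4 arrays the difference of Piwil1 was 0.073, within slide 1 it was 0.24 and within slide 2 it was 0.040.

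Piwil2 had signals of 0.43, 0.71, 0.42, 0.36 and 0.37 in C and of 0.34, 0.38, 0.51, 0.59 and 0.18 in R. C replicate 2 was the highest of all 10 arrays and R replicate 5 the lowest, and the remaining values overlapped. The difference was -0.056 ± 0.097 (SE, 95% interval -0.27 to 0.16, limma adjusted p = 0.660), and without C replicate 2 it was 0.0063.

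The within-array log2 ratio of Piwil1 to Piwil2 was compared as the only ratio that could be formed, and it asks whether both genes changed by unequal amounts. Its mean was 1.80 ± 0.33 over the C arrays and 1.90 ± 0.24 over the R arrays (SD, n = 5 each), a difference of 0.10 with an exact 2-sided permutation p of 0.603 over 252 splits. With the slide as a block and permutation within slides the difference was 0.31 (exact p = 0.0167, 60 splits). It was 0.35 within slide 1 (exact p = 0.0667, 15 splits) and 0.24 within slide 2 (exact p = 0.250, 4 splits), the smallest p that so few splits can give, so neither could pass 0.05. With slide and row as a block, an alternative chosen after seeing the data, it was 0.26 (exact p = 0.0417, 24 splits). Without C replicate 2 the pooled difference was -0.0069. The ratio was past 0.05 only in the comparisons with a block, where each p is also the smallest its splits can give.

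**Figure D1:**
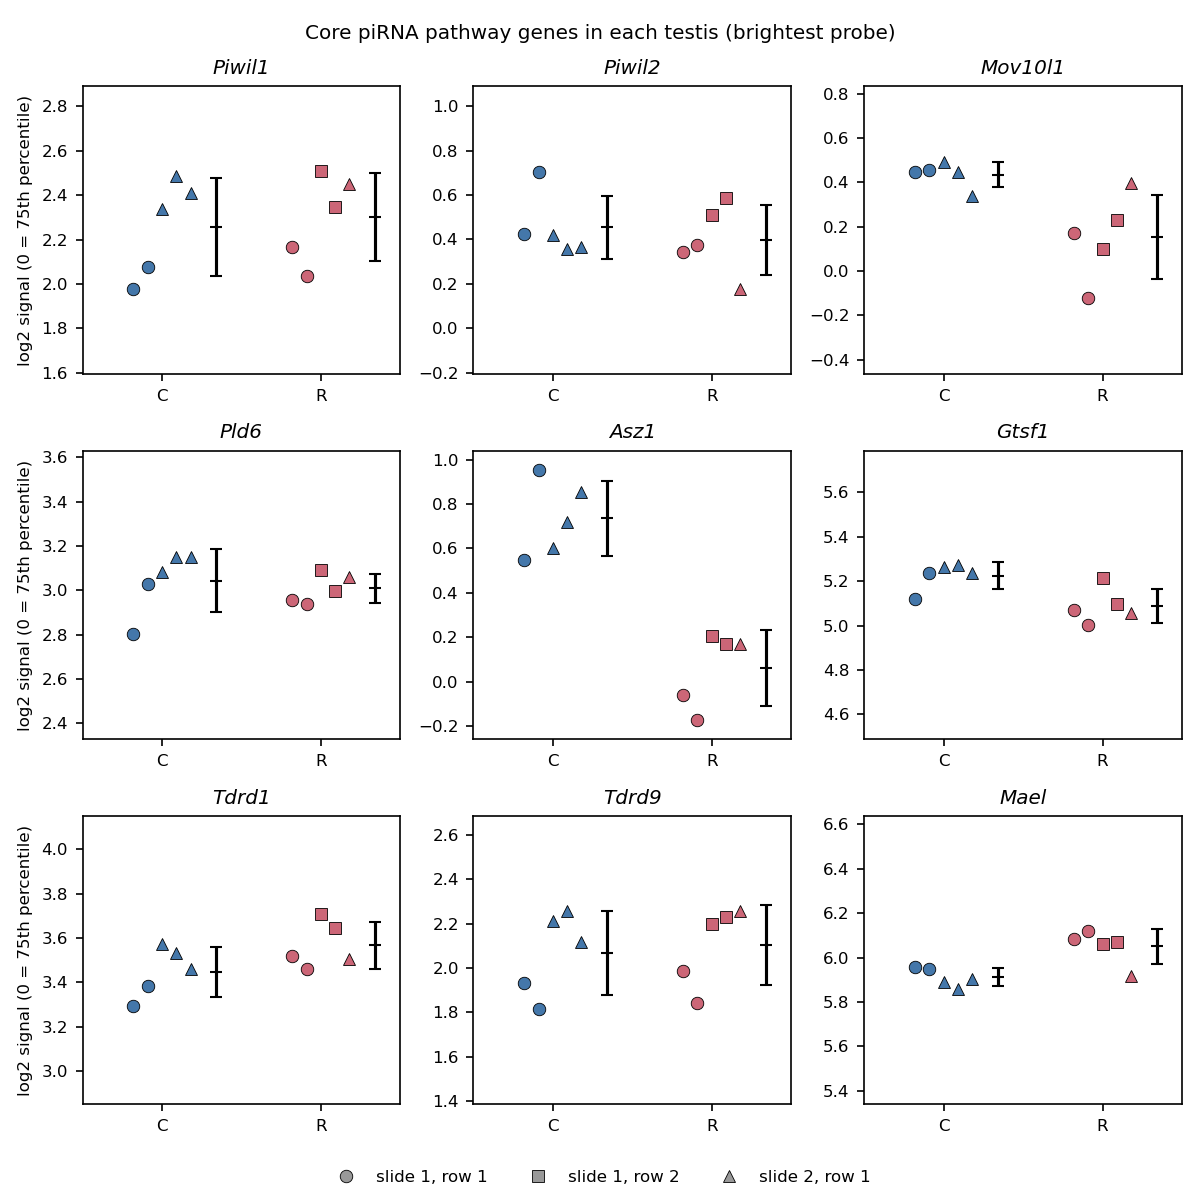
Log2 signal of the brightest probe of each tested member (vertical axis, 0 = the array's 75th percentile, the same span of 1.3 log2 units in every panel) in the 5 C and 5 R testes. Symbols give slide and row and bars the mean and SD of a group. Asz1 is the panel in which all R arrays, at -0.18 to 0.21, lie below all C arrays, at 0.55 to 0.95.

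Among the genes of precursor processing, Mov10l1 was called lower. Its signals were 0.44, 0.45, 0.49, 0.45 and 0.34 in C and 0.17, -0.12, 0.099, 0.23 and 0.40 in R. R replicate 5, the R array of slide 2, lay inside the C range, while the 4 R arrays of slide 1 lay below every C array. Mov10l1 fell 1.21-fold (95% interval 1.05 to 1.40, n = 5 per group, limma adjusted p = 0.0361), which is under the study's own fold of 1.5. The spread was larger in R (SD 0.19) than in C (SD 0.057), though this difference in spread was not tested.

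The call of Mov10l1 was lost when any 1 of 7 arrays was left out (C replicates 1, 3 and 4 and R replicates 1, 2, 3 and 4, adjusted p up to 0.0740). It was also lost with slide blocking (-0.24, adjusted p = 0.0636), with the authors' scaling factors (-0.22, 0.111), with no filter (0.0858) and without R replicate 1 and C replicate 5 (-0.31, 0.0837). Its difference was -0.36 within slide 1 (0.0580) and -0.029 within slide 2 (0.882).

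Asz1, the mitochondrial scaffold also known as GASZ, had the largest difference of the members. Its brightest probe gave 0.55, 0.95, 0.60, 0.72 and 0.85 in C. In R the same probe gave -0.062, -0.18, 0.21, 0.17 and 0.17, so every R array was below every C array. Asz1 was the only member whose groups did not overlap, against 29.1% of all genes, 16.5% with R below C. Asz1 fell 1.60-fold by this probe (95% interval 1.35 to 1.88, n = 5 per group, limma adjusted p = 0.00254). It was the only member to meet both the study's fold and an adjusted p under 0.05, which 9.96% of all genes did, 5.68% in the lower direction.

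The other Asz1 probe, assigned to the same accession, did not show this. It gave -2.86, -2.52, -2.76, -2.90 and -2.81 in C and -2.96, -2.55, -2.76, -2.63 and -2.78 in R, well above background on all 10 arrays. Its groups overlapped fully, with a difference of 0.034 ± 0.098 (SE, limma adjusted p = 0.795). The mean of both probes was -0.32 (adjusted p = 0.0191). The sequences of the probes were not used here, so which transcript each one reads was not tested.

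By its brightest probe Asz1 was called when any 1 array was left out (adjusted p up to 0.00921), with slide blocking (-0.66, 0.00383) and when R replicate 1 and C replicate 5 were dropped (-0.61, 0.0238). It was called within slide 1 (-0.72, 0.0246) and not within slide 2, where 1 R array stood against 3 C arrays (-0.56, 0.127). With the grouping of the authors' table it was at -0.31 (adjusted p = 0.465).

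Pld6, the mitochondrial nuclease that cuts piRNA precursors, had signals of 2.81, 3.03, 3.08, 3.15 and 3.15 in C and of 2.96, 2.94, 3.09, 3.00 and 3.06 in R. All R arrays lay within the C range. The difference was -0.034 ± 0.079 (SE, 95% interval -0.21 to 0.14, limma adjusted p = 0.744), and the other probe of Pld6 gave -0.16 ± 0.073 (0.108).

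Gtsf1, a small zinc finger protein that helps PIWI proteins cut their targets, was at 5.12, 5.24, 5.26, 5.27 and 5.24 in C and at 5.07, 5.00, 5.21, 5.10 and 5.06 in R. C replicate 1 and R replicate 3 made the groups overlap; the other R arrays were below every C array. Its difference was -0.14 ± 0.062 (SE, 95% interval -0.28 to 0.00091, limma adjusted p = 0.101). It was called lower with each array's median as reference (-0.34, 0.0152) and with array weights (-0.16, 0.0256).

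Of the members Tdrd1, Tdrd9 and Mael, grouped here as Tudor and nuage genes, none was called. Tdrd1, a multi-domain Tudor scaffold that binds PIWIL2, had signals of 3.29, 3.38, 3.57, 3.53 and 3.46 in C. In R it was at 3.52, 3.46, 3.71, 3.65 and 3.50, with R replicates 3 and 4 above every C array. The difference was 0.12 ± 0.078 (SE, 95% interval -0.054 to 0.29, limma adjusted p = 0.235).

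Tdrd9, a Tudor protein with a helicase domain, was at 1.93, 1.81, 2.21, 2.26 and 2.12 in C and at 1.99, 1.84, 2.20, 2.23 and 2.26 in R. By this probe, the brightest of Tdrd9, the low values in both groups were the arrays of row 1 on slide 1, as for Piwil1. Its difference was 0.036 ± 0.11 (SE, limma adjusted p = 0.813), and that of the other probe was 0.018 ± 0.065 (0.839). The other probe did not have the split. It was at 1.86 and 1.85 in C replicates 1 and 2 and at 1.86 and 1.73 in R replicates 1 and 2. In C replicates 4 and 5 it was at 1.83 and 1.85.

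Mael, a nuage protein needed for transposon silencing, had a small spread, with 5.96, 5.95, 5.89, 5.86 and 5.90 in C and 6.09, 6.12, 6.06, 6.07 and 5.92 in R. R replicate 5 lay inside the C range, while slide 1's 4 R arrays were above every C array. The difference was 0.14 ± 0.060 (SE, 95% interval 0.0065 to 0.27, limma adjusted p = 0.0860). Mael was called higher with the authors' scaling factors (0.20, 0.0253), array weights (0.16, 0.0190) and a trended robust variance (0.0365), while with each array's median as reference its sign was negative (-0.067, 0.574). For Mov10l1 and Mael, picked here after their values were seen, the R array of slide 2 lay inside the C range. That single array was below every C array for Asz1 (0.17) and Gtsf1 (5.06). No share of all genes is given for either pattern.

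**Figure D2:**
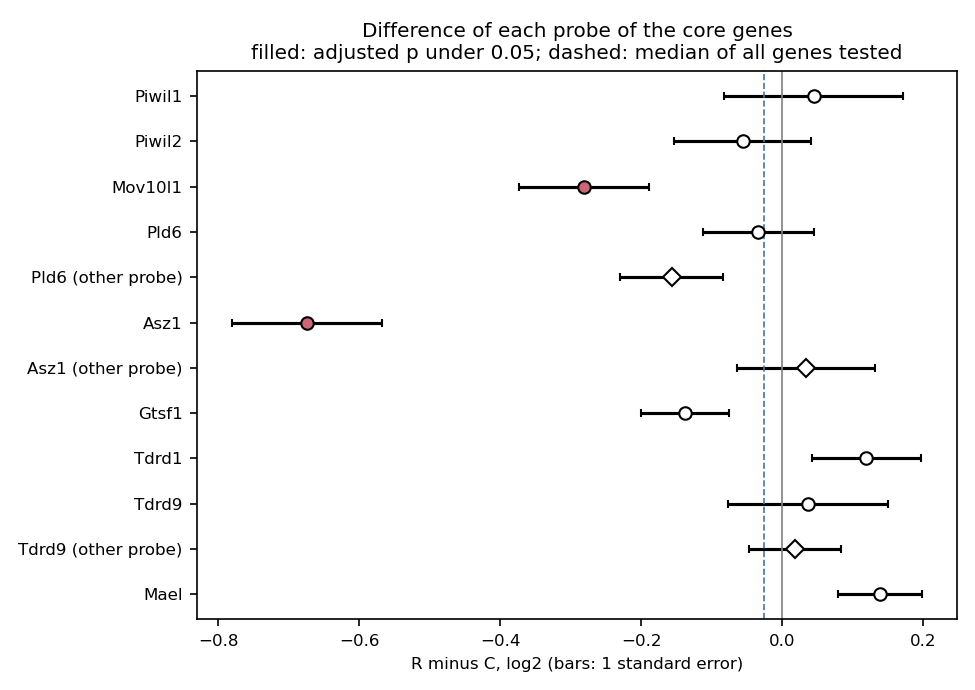
Difference R minus C on the log2 scale (horizontal axis, bars 1 standard error) for all 12 probes of the 9 tested members, with circles for the brightest and diamonds for other probes. The filled points are Asz1 at -0.67 and Mov10l1 at -0.28, and the other Asz1 probe lies at 0.034.

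The sign of several small differences changed with the scaling reference. Signs of small differences also turned with array weights and with slide blocking, where the reference was unchanged. With each array's median as reference all 9 members had a negative estimate and 3 were called lower (Asz1, Mov10l1 and Gtsf1), beside 37.2% of all genes. With slide blocking 1 member, Asz1, was called lower, beside 28.6% of all genes called lower and 51.6% in either direction. The array median moved the median of all genes from -0.026 to -0.23, and 12.8% of called genes were higher against 42.2% with the 75th percentile. With the authors' scaling factors 3 members were negative, Asz1 was called lower and Mael higher, and 50% of called genes were higher. Asz1 kept its sign and its call under every scaling tried, from -0.61 to -0.88, and Mov10l1 kept its sign.

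**Figure D3:**
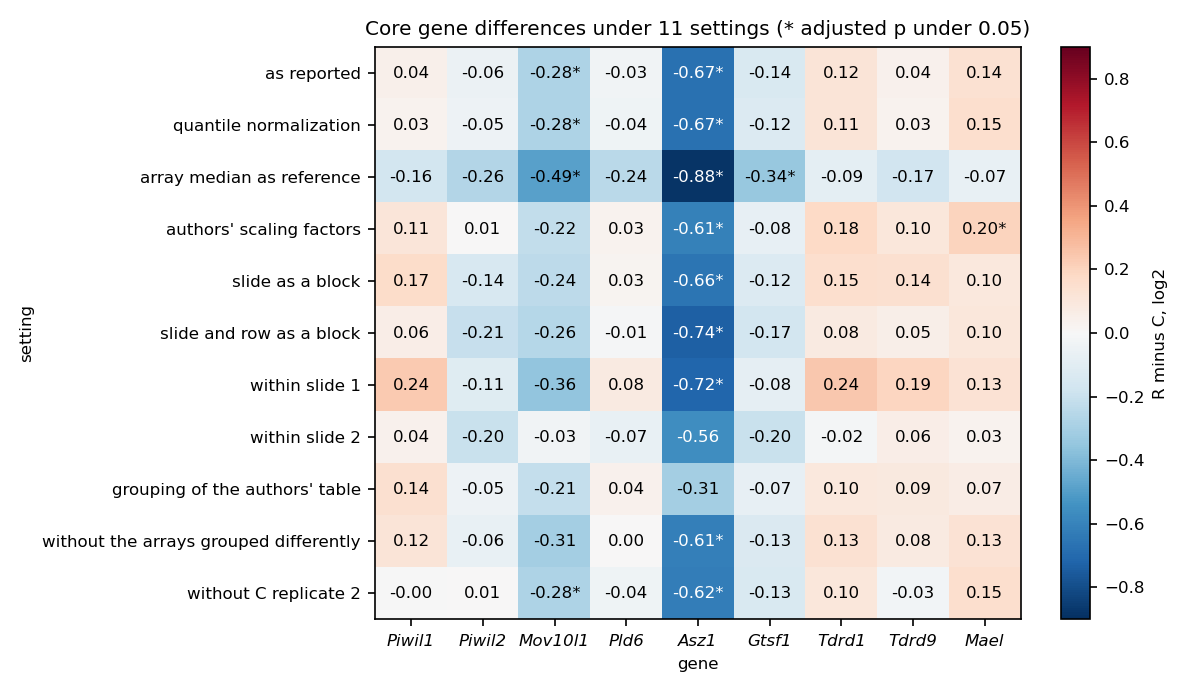
Difference R minus C on the log2 scale (colour and number) of the 9 tested members (columns) under 11 settings (rows), with an asterisk at an adjusted p under 0.05. The column of Asz1 is negative throughout, from -0.88 to -0.31, while the columns of Piwil1, Piwil2, Pld6, Tdrd1, Tdrd9 and Mael change sign between settings.

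The other genes of the pathway were taken from a list of 30, of which 27 were tested. Nanos2 was well above background on 1 array, and no probe was named for Spocd1 or Dnmt3c. Of the 27, 8 were called lower and 1 higher in R, beside 20.6% and 15% of all genes, with a median of -0.15. The median was -0.094 without C replicate 2 and -0.35 when scaled to the array median. With slide blocking 9 were called lower and 4 higher, beside 4817 and 3875 of all 16835 genes. With slide and row as a block 8 were lower and 3 higher, beside 3855 and 2894 of all genes. Without R replicate 1 and C replicate 5 only 2 of the 27 were called, Tex19.1 and Tdrd3, beside 2702 of all 16835 genes.

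Tex19.1, which restrains transposons in germ cells, had the largest fall. It was at 1.85, 2.44, 1.58, 1.59 and 1.79 in C and at 1.01, 1.22, 0.94, 0.96 and 1.11 in R, without overlap. Tex19.1 fell 1.74-fold (95% interval 1.38 to 2.21, limma adjusted p = 0.00477) and was the only one of these genes past the study's fold.

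Fkbp6, a co-chaperone in piRNA biogenesis, fell 1.38-fold (limma adjusted p = 0.0123), and its other probe gave -0.31 (0.116). Stk31, a Tudor protein with a kinase-like domain, fell 1.25-fold (0.0132). Ddx4, the Vasa helicase that marks germ cells, fell 1.16-fold (0.0175), with 4.55 to 4.69 in C and 4.36 to 4.48 in R. These 3 genes, Tex19.1 and Gpat2, given below, had no overlap between the groups. Among all genes 16.5% had every R array below every C array. The calls of Fkbp6, Stk31 and Ddx4 were lost without R replicate 1 and C replicate 5 (adjusted p = 0.0583, 0.0685 and 0.0855).

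Morc1, an ATPase of transposon repression, fell 1.35-fold (limma adjusted p = 0.0154) and Wdr77, the partner of the arginine methyltransferase Prmt5, 1.26-fold (0.0176), each with overlap between the groups. The other probe of Wdr77 gave -0.086 (0.234). Outside the rule for named genes and chosen after their values were seen, Tcfl5, a transcription factor of spermatocytes, fell 1.29-fold (0.0182) and Gpat2, a mitochondrial protein that binds PIWIL2, 1.13-fold (0.0395), Gpat2 without overlap. The call of Gpat2 was lost when any 1 of 7 arrays was left out (C replicates 4 and 5 and all R replicates, adjusted p up to 0.0881). Without R replicate 1 and C replicate 5 Morc1, Wdr77, Tcfl5 and Gpat2 were not called (0.0713, 0.0635, 0.0897 and 0.137).

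Tdrd3, a broadly expressed Tudor scaffold, was the only one of the 27 called higher in the comparison without blocks. It was at 0.91, 0.60, 0.93, 0.84 and 0.74 in C and at 1.19, 1.12, 1.34, 1.29 and 1.12 in R, with every R array above every C array. Tdrd3 rose 1.33-fold (95% interval 1.17 to 1.50, limma adjusted p = 0.00585), and its other probe gave 0.44 (0.0184). With each array's median as reference the difference of Tdrd3 was 0.20 and not called (0.0693).

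Several genes around the PIWI proteins did not pass in the comparison without blocks. Mybl1 had 1.22 ± 0.054 in C and 1.11 ± 0.062 in R (SD, n = 5), a difference of -0.12 ± 0.058 (SE, limma adjusted p = 0.131). The 3′ end enzymes Henmt1, which methylates piRNAs, and Pnldc1, which trims them, had differences of 0.016 ± 0.052 (0.821) and -0.064 ± 0.099 (0.620). Tdrkh, the mitochondrial Tudor protein that supports trimming, was at -0.16 ± 0.11 (0.273), and Tdrd6, of the chromatoid body of spermatids, at -0.15 ± 0.15 (0.447). Tdrkh was called lower with slide blocking (-0.26, 0.0415) and within slide 1 (-0.38, 0.0438), and not with slide and row as a block (0.0594). Scaled to the array median, Mybl1 (-0.32, 0.0120) and Tdrd6 (-0.35, 0.0472) were called lower, as they were with array weights (-0.14, 0.0302 and -0.31, 0.0433).

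At 2 further genes, named after their values were seen, probes disagreed. The brightest probe of Tdrd5 was at -0.19 (limma adjusted p = 0.0781) and its other probe at 0.29 (0.0243). The brightest probe of Rnf17 was at -0.054 (0.595) and its other probe at 0.32 (0.0150), with all R arrays above all C arrays.

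**Figure D4:**
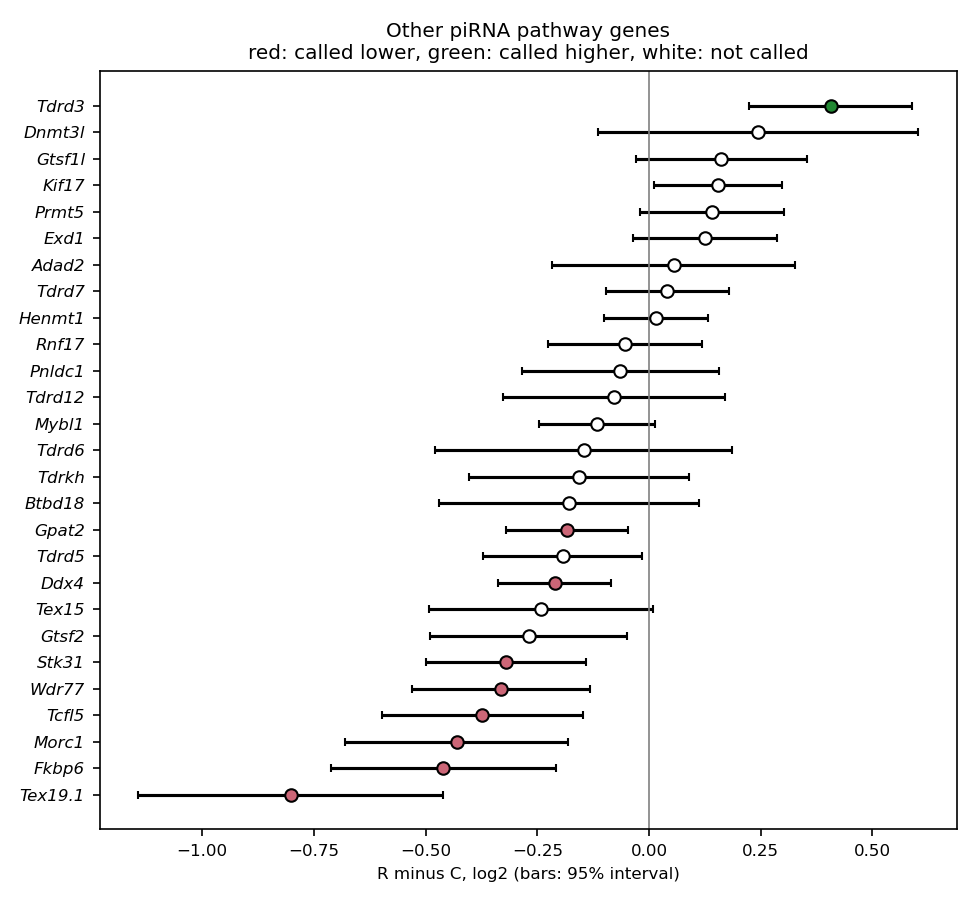
Difference R minus C on the log2 scale (horizontal axis, bars 95% interval) of the brightest probe of the 27 other pathway genes tested. Red points, 8 in all, were called lower, from Tex19.1 at -0.80 to Gpat2 at -0.18, and the green point is Tdrd3 at 0.41.

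The values of germ cell stage markers are given beside those of the piRNA genes. For the counts of called markers, 20.6% of all genes were called lower and 15% higher. Of 16 markers of early meiotic spermatocytes 8 were lower and 1 higher (median -0.36), with list means of 2.28 to 2.50 over the C arrays and 1.96 to 2.08 over the R arrays. Of 15 spermatogonial markers 6 were lower and 2 higher (median -0.31), with list means of -0.31 to 0.14 in C and -0.47 to -0.36 in R. The spermatogonial median was -0.19 without C replicate 2, the highest C array, and -0.14 within slide 2. That of early spermatocytes was -0.30 and -0.26 in the same 2 comparisons. Late spermatocyte markers (1 of 14 lower, 0 higher) had a median of 0.031. Round spermatid markers (1 of 15 lower, 0 higher) had a median of -0.024 and elongating spermatid markers (2 of 15 lower, 0 higher) a median of -0.00076.

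Among somatic lists, 16 of 19 Sertoli markers were lower and 1 higher (median -0.50, list means of 1.75 to 2.41 in C and 1.45 to 1.63 in R). Of 12 Leydig markers 6 were lower, and of 11 macrophage markers 6 were lower and 1 higher (medians -0.27 and -0.58). Of 9 endothelial markers 4 were higher and 0 lower (median 0.45). Of 8 peritubular markers 1 was higher and 1 lower, of 4 blood markers 2 were lower, and of 9 adipocyte markers 0 were called (medians -0.045, -0.69 and 0.68). Among all genes 20.6% were called lower and 15% higher. Without C replicate 2 the medians were -0.40 for Sertoli, -0.19 for Leydig, -0.49 for macrophage, 0.33 for endothelial and -0.55 for blood markers. Within slide 2 they were -0.29, -0.43, -0.79, 0.47 and 0.074. The peritubular median was 0.049 and -0.024, the adipocyte median 0.77 and 0.32. Amh and Cd163 were not above background on enough arrays to be tested. The part of these cell types in the differences of the piRNA genes was not tested.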

How the data were processed

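Testis RNA of 5 C and 5 R animals was measured on 1-colour Agilent arrays with Cy3 label. Per the file headers, the deposited scanner files hold spot intensity values of Agilent Feature Extraction 12.0.3.1, background-subtracted within an array and not normalised between arrays. The headers name mm9 for the probe annotation. For 2266 probes a table deposited by the authors gives scaled intensity, a log2 ratio, a p-value and a q-value (0.515 throughout), of unstated method. Its other 10 columns of per-sample values were not used here.

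Control and outlier spots were left out and spots of a probe averaged. Log2 of the processed intensity minus the 75th percentile over an array's non-control spots was analysed. Of 56605 probes, 33851 were well above background on at least 5 of 10 arrays, had no missing value and were tested with limma 3.58.1 in R 4.3.3 (lmFit, eBayes, Benjamini-Hochberg over probes). Names came from accessions in the GRCm38.p6 gene table (33767 probes) and, for 234 probes, from the authors' table. The brightest tested probe stood for a gene.

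The members, lists and tests were chosen with earlier results of these data known. Text names every member, the called pathway genes of smallest p (up to 4 higher and 6 lower) and Mybl1, Ddx4, Tdrkh, Tdrd6, Henmt1 and Pnldc1. On simulated data of 33851 probes, 200 of them changed, 74% of those changed 2-fold were recovered and 6 of 33651 unchanged ones called. The simulated noise was independent between probes, and in the real comparison 13059 probes were called. These rates therefore need not hold for these data, nor for the members' differences, which were all under 2-fold. Of 3 planned PIWI ratios, those with Piwil4 could not be formed. The median spot signal replaced the mean one in the normexp alternative. No promoter entry was found for Piwil2. Alternatives covered background correction, scaling, filter, array weights, variance, slide, probes, grouping and each array left out.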

Additional observations from a re-analysis of the deposited data

Results flagged for a closer look

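In 3 of the 20 groups of 5 arrays examined (each tested member and the Piwil1 to Piwil2 ratio, in C and in R), the highest or lowest array was set off from the rest by a gap above Dixon's critical share of 0.71 of the range. Chance flags about 1 in 20 groups. Piwil2 was at 0.71 in C replicate 2, against 0.43 for the nearest C array, a gap of 0.809 of the range, and C replicate 2 also stood apart over all genes. Mael was at 5.92 in R replicate 5, the R array of slide 2, against 6.06 for the nearest R array (0.726). Gtsf1 was at 5.12 in C replicate 1, against 5.24 for the nearest C array (0.775).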

How the results depend on the processing

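Asz1 (brightest probe) kept its direction under all 27 alternatives and its call under 24. Mov10l1 kept its direction under all 27 and its call under 11. Of the 9 members, 2 were called in the main comparison. The count was 1 with no filter, 4 with array weights, 1 with the slide as a block, 1 with slide and row as a block, 1 within slide 1, 1 without the 2 arrays grouped differently in the authors' table, and 1 to 2 with single arrays left out. It was 0 within row 1 of slide 1 (limma, 2 at an unadjusted p under 0.05), 0 within slide 2 (1) and 0 with the table's grouping (0). Of all 16835 genes, 6001 were called, against 7194 with the array median, 6785 with array weights and 8692 with the slide as a block. The number was 6749 with slide and row, 6683 within slide 1 and 2702 without those 2 arrays. With no filter it was 3808 of 23549. In the 3 comparisons just named with 0, limma called 0 genes (5158, 3540 and 1374 at an unadjusted p under 0.05). With single arrays left out the range was 4127 to 6450. Of the 27 other pathway genes, 9 were called, against 14 with the array median, 14 with array weights, 13 with the slide as a block (9 lower, 4 higher), 2 without those 2 arrays, and 0 in the same 3 comparisons (7, 4 and 0 at an unadjusted p under 0.05). The Piwil1 to Piwil2 ratio gave 0.31 with the slide as a block, 0.26 with slide and row, and -0.0069 to 0.18 with single arrays left out. The cause of these changes was not tested. The percentile over averaged probes, slide and row as a block, and row 1 of slide 1 were chosen after seeing the data. The ratios with Piwil4 could not be run. Within slide 2 the lone R array is assumed to vary like the C arrays. No paired analysis was possible because the replicate numbers follow accession order only.

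Signs turned at genes that were not called. With the array median they were Piwil1 -0.16, Tdrd1 -0.087, Tdrd9 -0.17, Mael -0.067 and Henmt1 -0.19. With the authors' scaling factors they were Piwil2 0.0063, Pld6 0.028 and Rnf17 0.0088. With array weights they were Piwil1 -0.058, Piwil2 0.013, Tdrd9 -0.070 and Henmt1 -0.0062, and with the percentile over averaged probes Henmt1 -0.010. With the slide as a block they were Pld6 0.026, Tdrd6 0.0029 and Pnldc1 0.019, and within row 1 of slide 1 Pld6 0.031. Within slide 1 they were Pld6 0.079, Tdrd6 0.056, Pnldc1 0.0089 and Rnf17 0.073. Within slide 2 they were Tdrd1 -0.017, Henmt1 -0.048 and Pnldc1 0.038. With the mean of probes they were Henmt1 -0.022, Rnf17 0.13 and Tdrd5 0.050. With the table's grouping they were Pld6 0.042, Henmt1 -0.0056, Pnldc1 0.063 and Rnf17 0.0033, and without the 2 arrays Pld6 0.0050. With single arrays left out, Piwil1 ranged from -0.026 (C replicate 1) to 0.11, with -0.000655 (C replicate 2) and -0.0075 (R replicate 3). Piwil2 ranged from -0.10 to 0.0063 (C replicate 2), and Tdrd9 from -0.027 (C replicate 2) to 0.10, with -0.0023 (R replicate 5).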
